A study of Mus musculus with 2 samples.

Results

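The granule genes described here are Gzma, Gzmb, Gzmc, Gzmd, Gzme, Gzmf, Gzmg, Gzmk (granzymes) and Prf1 (perforin), taken by symbol, 9 of the 27998 genes counted in both libraries. They were read in lymphocytes gated by 4 genes, so that 700 of 6198 cells entered. A CD8 T cell had a UMI (unique molecular identifier, standing for 1 captured RNA molecule) of Cd3e, 1 of Cd8a or Cd8b1, and none of Ncr1. Other T cells had Cd3e without Cd8a, Cd8b1 or Ncr1, and NK (natural killer) cells had Ncr1 without Cd3e. The cells were CD45+ leukocytes from TSA mammary tumours, grown under the skin of Balb/c mice from injected cells of TSA, a mouse mammary carcinoma line. The untreated group received no NAM (nicotinamide), whereas the NAM group drank water with 0.5% NAM for 10 days, from when tumours measured 0.25 cm2. The study's mice were female, 6 to 15 weeks old, with no age given for these animals. Each group was 1 library from the pooled tumours of 3 mice, so that no test between groups is possible and every interval below covers counting error only.

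Granzymes are serine proteases that cytotoxic lymphocytes store in secretory granules as proteoglycan-bound, processed enzymes. On contact with a target cell the granules fuse with the plasma membrane, perforin forms pores in the target's membrane, and granzymes enter and cleave their substrates. Granzyme B, an aspartate-specific protease, is the best known trigger of apoptosis among them, granzyme A and granzyme K are tryptases, and granzymes C to G are rodent relatives of granzyme B that appear in strongly activated mouse lymphocytes. In mouse T and NK cells granzyme B and perforin proteins rise on activation, and regulatory T cells in tumours can also hold granzyme B.

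Of these genes 6 lie side by side on the minus strand of chromosome 14 (GRCm38, GENCODE vM21), within chr14:56117626-56262260, in the order Gzme, Gzmd, Gzmg, Gzmf, Gzmc, Gzmb, each with 5 exons. Gzma (chr13:113093825-113100981) and Gzmk (chr13:113171608-113225908) are neighbours on chromosome 13, and Prf1 (chr10:61297833-61304680, plus strand) lies apart. The proximal promoters of 4 genes of the chromosome 14 cluster are printed to set Gzmb beside 3 genes whose UMIs were held by fewer cells, with 50% of Gzmb in 18 untreated cells and 50% of Gzmc in 4. They come from RefSeq (GRCm38.p6) and run 5′ to 3′ on the gene's strand, from 250 bases before to 50 after the RefSeq transcription start. RefSeq and GENCODE starts can differ. The Gzmb window lies wholly upstream of the GENCODE gene, and that of Gzmk lies inside its GENCODE gene, away from the start. The windows are chr14:56262285-56262584 (Gzmb), chr14:56234608-56234907 (Gzmc), chr14:56132544-56132843 (Gzmd) and chr14:56211358-56211657 (Gzmf). Capitals mark the letters TGTGGT (bound by Runx factors), TGANTCA (AP-1) and TGACGTCA (the cyclic AMP response element, CRE), read on either strand.
Gzmb: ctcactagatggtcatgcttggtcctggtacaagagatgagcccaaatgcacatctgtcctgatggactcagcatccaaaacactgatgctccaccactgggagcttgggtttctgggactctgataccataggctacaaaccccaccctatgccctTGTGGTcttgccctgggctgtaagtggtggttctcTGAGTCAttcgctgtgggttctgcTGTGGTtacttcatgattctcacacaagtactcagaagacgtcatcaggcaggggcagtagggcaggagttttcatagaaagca
Gzmc: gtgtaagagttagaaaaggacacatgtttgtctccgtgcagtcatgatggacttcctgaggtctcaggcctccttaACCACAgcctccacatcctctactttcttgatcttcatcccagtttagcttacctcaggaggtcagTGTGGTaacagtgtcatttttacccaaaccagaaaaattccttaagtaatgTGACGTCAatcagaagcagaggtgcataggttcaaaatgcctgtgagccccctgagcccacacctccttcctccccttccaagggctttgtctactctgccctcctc
Gzmd: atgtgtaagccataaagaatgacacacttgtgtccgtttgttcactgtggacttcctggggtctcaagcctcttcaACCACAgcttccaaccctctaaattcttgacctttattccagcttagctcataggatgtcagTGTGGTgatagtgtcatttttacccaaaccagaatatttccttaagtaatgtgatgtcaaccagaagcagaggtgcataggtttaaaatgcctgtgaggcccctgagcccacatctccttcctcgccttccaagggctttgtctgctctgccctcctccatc
Gzmf: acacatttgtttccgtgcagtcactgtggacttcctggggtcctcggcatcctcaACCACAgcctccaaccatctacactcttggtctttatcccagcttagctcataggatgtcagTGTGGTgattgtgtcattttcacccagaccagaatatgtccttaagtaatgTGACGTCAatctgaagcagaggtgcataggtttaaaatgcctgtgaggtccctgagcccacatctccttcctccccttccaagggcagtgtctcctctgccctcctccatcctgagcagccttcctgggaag
The Runx letters occurred in the windows of 8 of the 9 genes, all but Gzmk, and in 16.8% of 32851 promoters of the same length. AP-1 letters were found for Gzmb alone (7.81% of all promoters), and CRE letters for Gzmc, Gzmf and Gzmg (1.79%). No member window held TATAAA (13.6% of all promoters), and GGTGTGA, a T-box motif, was found for Gzmk alone (3.98%). In the printed windows no match overlapped another, and a match is a description of letters, not a bound site.

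The promoters of Gzmc, Gzmd and Gzmf were close to one another in sequence, whereas that of Gzmb stood apart. Identity over all positions of the alignment, gaps included, was 82.7% between Gzmc and Gzmd, 73.5% between Gzmc and Gzmf and 93.4% between Gzmd and Gzme, against 46.0% between Gzmb and Gzmc. In the transcripts' last 500 bases, which the 3′ libraries read, Gzmc stood apart as well, with 52.3% identity to Gzmd, 54.3% to Gzmf and 56.7% to Gzme, against 83.4% to 89.4% among Gzmd, Gzme, Gzmf and Gzmg. Gzmd and Gzme were the pair at 89.4%, and 20.6% of the 50-base windows of Gzmd also occurred in another gene, as did 18.2% for Gzme, 14.4% for Gzmg and 7.10% for Gzmf. Counts of Gzmd, Gzme, Gzmf and Gzmg are therefore uncertain as to which of these genes, or Gzmn, with which 39 of the 65 shared windows of Gzmg and 13 of the 82 of Gzme were shared, a molecule came from. No such window of Gzma, Gzmb, Gzmc, Gzmk or Prf1 was shared.

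The untreated library held 2922 cells and 29161823 UMIs (median 9056 per cell) and the NAM library 3276 cells and 32090120 UMIs (median 9128). There were 104 and 169 CD8 T cells, 127 and 156 other T cells and 92 and 52 NK cells in untreated and NAM, respectively. Another 11 and 19 cells had both Cd3e and Ncr1 and were kept apart. Of 11 barcodes found in both libraries, 4 belonged to gated cells. Klrb1c (NK1.1) was seen in 50% and 46.2% of NK cells and in none of the CD8 T cells, and Foxp3 and Cd4 had no UMI in NK cells. Cd3g, a T-cell receptor component, did have 55 and 32 UMIs there. The other T gate fit its label least. In it, 33.9% of untreated and 44.9% of NAM cells held UMIs of at least 3 of 6 macrophage and monocyte markers, among them Csf1r, Adgre1 and Cd14, against 8.65% and 11.8% of CD8 T cells and 18.5% and 23.1% of NK cells. The summed level of 12 such markers, all 12 of them detected in each gate, went from 8219 to 11729 CPM (UMIs per 1000000 UMIs of the gate) in CD8 T cells, from 24679 to 27603 in other T cells and from 10652 to 18951 in NK cells. These values move with the comparison below, and their part in it was not tested beyond giving results with and without those cells.

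NK cells had the highest share of granule RNA of the 3 gates. The 9 genes together made up 0.869% of all UMIs of untreated and 0.652% of NAM NK cells, against 0.0708% and 0.111% in CD8 T cells and 0.0466% and 0.0307% in other T cells. A 3′ UMI count does not grow with transcript length, so levels of different genes can be set side by side as CPM. In untreated NK cells the order was Gzmc (3180 CPM), Gzma (2212), Gzmb (1113), Gzmf (857), Gzmg (566), Gzmd (539), Gzme (182), Prf1 (37.0) and Gzmk (3 UMIs in all). The places of Gzmf, Gzmg and Gzmd rested on 1 cell, described below, and without the highest cell for each gene these levels were 7.39, 8.86 and 88.6 CPM. That cell held 1791 granule UMIs, and without the cell with most granule UMIs in each library the 9 genes made up 0.638% of untreated and 0.605% of NAM NK UMIs. These readings without 1 cell were chosen after seeing the data. Gzmg and Gzmd are neighbours whose intervals overlapped (511 to 624 and 486 to 596). In NAM NK cells the order was Gzma (3445), Gzmb (1868), Gzmc (990), Gzmd (113), Gzme (62.3) and Prf1 (32.6), with 1 UMI of Gzmf, none of Gzmg and 3 of Gzmk. Thus Gzmc, 36.6% of granule UMIs in untreated NK cells, made up 15.2% in NAM, while Gzma went from 25.5% to 52.8% and Gzmb from 12.8% to 28.6%. Without the cell with most granule UMIs in each library, Gzmc went from 43.7% to 17.1%, Gzma from 36% to 52.6% and Gzmb from 17.1% to 26.8%.

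CD8 T cells had another order, led by Gzmb in both libraries. Gzmb made up 54.9% of their granule UMIs in untreated and 63.1% in NAM. Gzmk, the granzyme of memory-like CD8 T cells, held 12.1% and 6.04%, and was nearly absent elsewhere (0 and 3 UMIs in other T cells, 3 and 3 in NK cells). Other T cells used Gzmb almost alone, at 92.5% and 94.5% of granule UMIs. Prf1 stayed low in every gate, from 0 UMIs in NAM other T cells to 37.0 CPM in untreated NK cells.

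**Figure D1:**
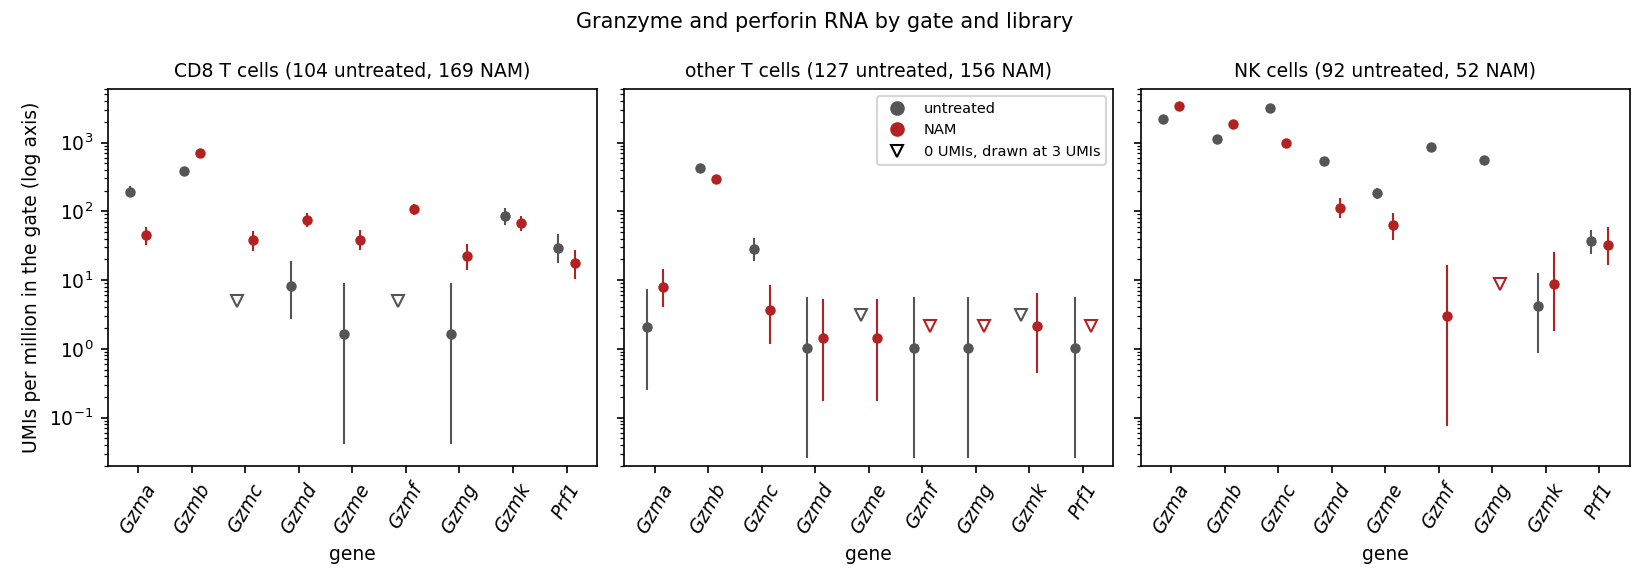
Level of each granule gene (CPM, log axis, with exact 95% Poisson intervals) in CD8 T, other T and NK cells of both libraries, with genes at 0 drawn as open triangles at 3 UMIs. NK cells hold the highest levels of Gzma, Gzmb and Gzmc, and Gzmc in NK cells goes from 3180 to 990 CPM.

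Each gene was then compared between the libraries as a log2 ratio of CPM, NAM over untreated. A gene with at least 20 UMIs in a gate, summed over both libraries, was called higher or lower where the ratio reached 1.5-fold and its 95% interval left out 0. In CD8 T cells 6 of 9 genes were called higher and 1 lower, and 2 were neither, where 4.05% of 6512 genes were called higher and 4.28% lower. In NK cells 2 of 8 were higher and 5 lower (4.16% and 5.04% of 5236 genes), and in other T cells 1 of 2 was lower and none higher (6.00% and 3.18% of 7621 genes). Of the 6 genes called higher in CD8 T cells, Gzmb alone had 20 UMIs in each library. Gzmc, Gzmd, Gzme, Gzmf and Gzmg passed there through NAM alone. Gzmf and Gzmg in NK cells and Gzmc in other T cells passed through untreated alone. The filter thus favoured these calls, and the counts only describe them. The median ratio over members with 20 UMIs was 3.05 in CD8 T cells (2.93 with genes at 0 set to the 3 UMIs that a count of 0 allows), -1.60 in NK and -1.72 in other T cells, against 0.03, -0.04 and -0.03 over all genes. The CD8 T median was the value of Gzmd, with 5 and 77 UMIs, and the NK median took in Gzmf and Gzmg. Since the filter chose such members, the gap to the medians of all genes is no result about the members. These medians also rested on few cells. Without the highest cell of each library for each gene, 4 of 6 genes were higher and none lower in CD8 T cells, and 2 of 6 were higher and 1 lower in NK cells. Without the highest 5, 1 of 2 was higher in CD8 T cells, and 1 of 3 was higher and 1 lower in NK cells. Equal numbers of cells were left out of each library, so a larger share went from the smaller gate. That was the untreated one for both T gates and the NAM one for NK cells. By itself this can raise ratios in T cells and lower them in NK cells.

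**Figure D2:**
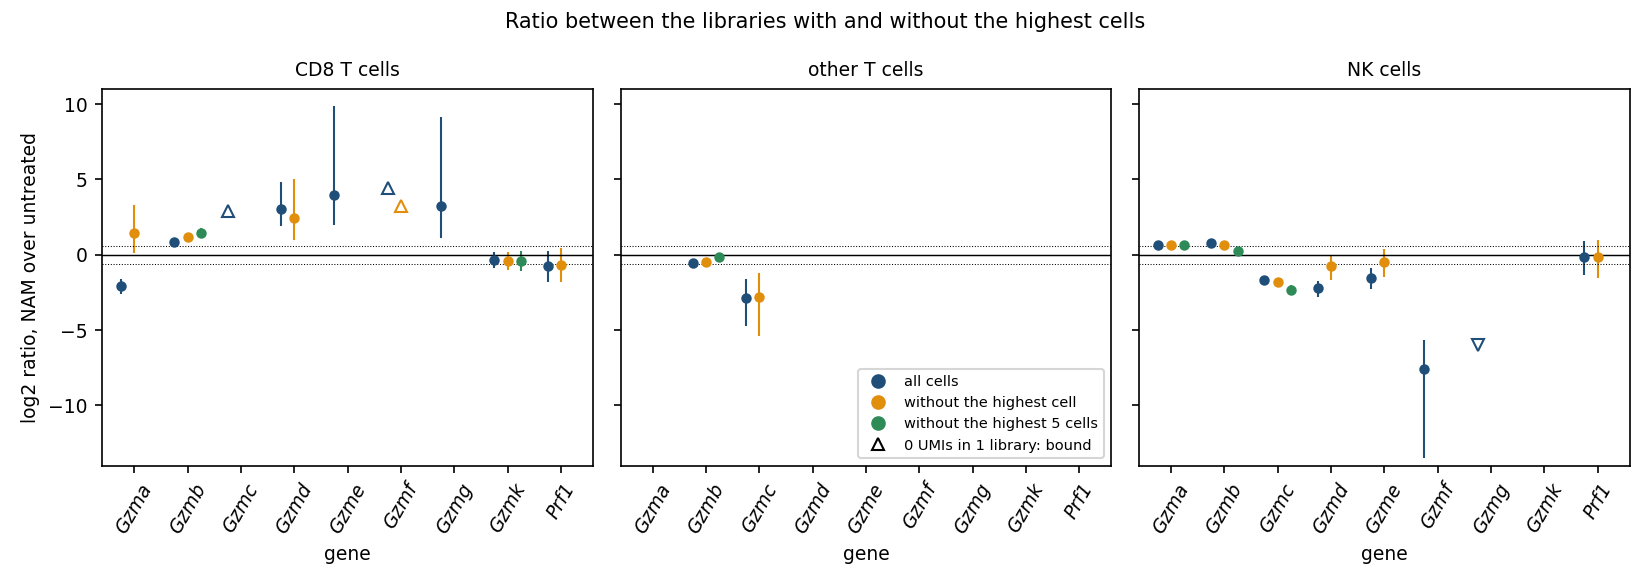
Log2 ratio of NAM over untreated for each granule gene with 20 UMIs in a gate, with all cells and without the highest 1 and 5 cells of each library (points with exact 95% intervals, open triangles for bounds where a library had 0 UMIs, dotted lines at 1.5-fold). Gzmb in CD8 T cells lies above 0 in all 3 settings, while Gzma there changes side once 1 cell per library is left out.

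Gzmb was the granule gene with most cells behind it in CD8 T cells, and its level was higher in NAM. Untreated CD8 T cells held 236 UMIs in 40 of 104 cells, 389 CPM (341 to 442). In NAM there were 721 UMIs in 90 of 169 cells, 698 CPM (648 to 750). The log2 ratio was 0.84 (0.63 to 1.06), and it was 1.14 without the highest cell and 1.44 without the highest 5 of each library. A single untreated cell with 59 UMIs held 25% of the untreated count, and 5 cells are a larger share of 104 than of 169. The share of CD8 T cells with a Gzmb UMI was 38.5% (29.1 to 48.5) in untreated and 53.3% (45.4 to 61.0) in NAM, or 28.8% (20.4 to 38.6) and 46.7% (39.0 to 54.6) after each cell was thinned to 3000 UMIs. The intervals overlapped in the counts as deposited. At equal depth they lay just apart (38.6 against 39.0) in a single random draw, and another draw can give intervals that overlap. Cells with 10 or more Gzmb UMIs numbered 6 and 22. Macrophage-like background cells, ungated cells with at least 3 of the 6 myeloid markers, had a Gzmb UMI in 2.26% and 2.69% of cells at a median of 9528 and 9523 UMIs, against 4715 and 4647 in CD8 T cells. Leaving out gated cells with myeloid markers gave 456 and 868 CPM.

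Gzma in CD8 T cells showed how far a single cell can set a value. Its 117 untreated and 46 NAM UMIs gave 193 and 44.5 CPM, and a log2 ratio of -2.10 (-2.64 to -1.61). Of the 117 untreated UMIs, 112 lay in 1 cell, which also held 59 Gzmb UMIs, 5 Cd3e and 11 Cd8b1 UMIs and no Ncr1. Without the highest cell of each library the counts were 5 and 25 UMIs and the ratio turned to 1.43 (0.13 to 3.28). Only 5.77% and 5.33% of CD8 T cells had a Gzma UMI, beside 3.73% and 3.59% of the deeper myeloid background cells.

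Gzmc to Gzmg were close to absent from untreated CD8 T cells and were found in a small number of NAM cells. Any of the 5 genes had a UMI in 5 of 104 untreated cells (4.81%, 1.58 to 10.9), none of them with over 3 UMIs, and in 18 of 169 NAM cells (10.7%, 6.44 to 16.3), 5 of them with 10 or more. Summed over the 5 genes, CD8 T cells held 7 UMIs in untreated (11.5 CPM) and 289 in NAM (279.6 CPM), a log2 ratio of 4.50 (3.54 to 5.93). Gzmf went from 0 to 110 UMIs in 10 cells, at least 21.5-fold higher with 3 UMIs per gate as the floor. Gzmc went from 0 to 39 UMIs in 7 cells, at least 7.64-fold higher. This rested on where cells with both Cd3e and Ncr1 were counted. With those that had Cd8a or Cd8b1 taken as CD8 T cells (106 and 170 cells), the ratio of Gzmc was 0.01 (-0.76 to 0.83). Gzmd went from 5 to 77 UMIs, with a log2 ratio of 3.05 (1.89 to 4.84). Gzme had 1 and 40 UMIs, a ratio of 3.99 (1.99 to 9.89), and Gzmg 1 and 23, a ratio of 3.20 (1.13 to 9.12).

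Much of this came from 1 NAM CD8 T cell. That cell had 3974 UMIs, 221 of them (5.56%) of granule genes, namely 48 Gzmb, 21 Gzmc, 45 Gzmd, 24 Gzme, 61 Gzmf and 22 Gzmg. It also had 5 Cd3e, 5 Cd8a and 3 Cd8b1 UMIs, no Ncr1, and 1 of the 6 myeloid markers. The next NAM cell held 16 Gzmb, 7 Gzmc, 10 Gzmd, 7 Gzme and 28 Gzmf UMIs, again with no Ncr1. Without the highest cell per gene Gzmf was still at least 9.55-fold higher (49 UMIs in NAM) and Gzmd still had a ratio of 2.44, while Gzmc, Gzme and Gzmg fell under the 20 UMIs that a call needs. Gzmc then had 0 and 18 UMIs, at least 3.51-fold higher, Gzme 0 and 16, at least 3.13-fold higher, and Gzmg 0 and 1. Without the highest 5 cells none of Gzmc to Gzmg reached 20 UMIs.

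Gzmk and Prf1 in CD8 T cells were called neither higher nor lower. Gzmk had 52 and 69 UMIs, 85.6 and 66.8 CPM, with a ratio of -0.36 (-0.90 to 0.19), in 28.8% and 24.3% of cells. Prf1 had 18 UMIs in each library, 29.6 and 17.4 CPM, with a ratio of -0.77 (-1.79 to 0.26), in 11.5% and 10.1% of cells. Both intervals include 0 and reach past a 1.5-fold decrease, so that neither no difference nor a decrease of that size is left out by these counts. No cell held over 9 Gzmk or 4 Prf1 UMIs in any gate.

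In NK cells Gzma and Gzmb were higher in NAM. Gzma went from 2212 CPM (2103 to 2324) in 43.5% of cells to 3445 CPM (3250 to 3649) in 57.7%, and its log2 ratio of 0.64 (0.53 to 0.75) stayed at 0.64 without the highest cell and 0.65 without the highest 5, but was 0.44 (0.30 to 0.59), under 1.5-fold, after thinning. Gzmb went from 1113 CPM (1036 to 1194) in 63.0% of cells to 1868 CPM (1725 to 2019) in 78.8%, a ratio of 0.75 (0.59 to 0.90). For Gzmb the ratio was 0.62 without the highest cell and 0.26 (0.05 to 0.47) without the highest 5, then under 1.5-fold. The highest 5 NAM cells held 52.9% of its UMIs, and 5 cells are a larger share of 52 NAM than of 92 untreated NK cells. Among NK cells with the gene, the median was 27 and 32 Gzma UMIs and 8 Gzmb UMIs in both libraries. Prf1 had 26 and 11 UMIs, in 17.4% and 17.3% of cells, with a ratio of -0.14 (-1.35 to 0.89).

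Gzmc was lower in level in NAM NK cells. It went from 3180 CPM (3049 to 3314; 2237 UMIs) to 990 CPM (887 to 1102; 334 UMIs), or -1.68 on the log2 scale (-1.85 to -1.52). This was -1.78 without the highest cell and -2.33 without the highest 5 of each library, where 5 cells are a larger share of the NAM gate. The share of NK cells with Gzmc was 50% (39.4 to 60.6) in untreated and 38.5% (25.3 to 53.0) in NAM, 41.3% and 36.5% thinned, and the intervals overlapped. Among Gzmc cells the median was 10.5 UMIs in untreated and 4 in NAM. Untreated NK cells with most Gzmc held 364, 349, 342 and 242 UMIs, and the highest NAM cells held 73 and 63. With myeloid-marker cells left out, the levels were 4022 and 1587 CPM.

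Gzmd, Gzme, Gzmf and Gzmg were called lower in NAM NK cells, and 1 untreated cell carried this. Their log2 ratios were -2.24 for Gzmd (-2.78 to -1.77) and -1.52 for Gzme (-2.29 to -0.87). Gzmf went from 603 UMIs to 1, a ratio of -7.59 (-13.48 to -5.69), and Gzmg from 398 to 0, at least 63.6-fold lower. The cell had 26580 UMIs, where the median untreated NK cell had 5722, and 1791 of them (6.74%) were granule UMIs, namely 44 Gzmb, 349 Gzmc, 319 Gzmd, 87 Gzme, 598 Gzmf, 392 Gzmg and 2 Prf1. It held 8 Ncr1 UMIs, no Gzma, and UMIs of 3 of the 6 myeloid markers. Without the highest cell of each library Gzmd had a ratio of -0.76 (-1.66 to 0.01) and Gzme -0.48 (-1.50 to 0.39), both neither, and Gzmf and Gzmg were left with 5 and 6 untreated UMIs and none in NAM. With all myeloid-marker cells left out the ratios of Gzmd and Gzme were above 0, at 0.43 (-0.21 to 1.03) and 0.13 (-0.72 to 0.91). With NK cells required to lack Cd3d and Cd3g too, the ratio was -0.92 (-1.87 to -0.12) for Gzmd, -0.04 (-0.93 to 0.76) for Gzme and -0.54 (-6.57 to 2.39) for Gzmf.

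**Figure D3:**
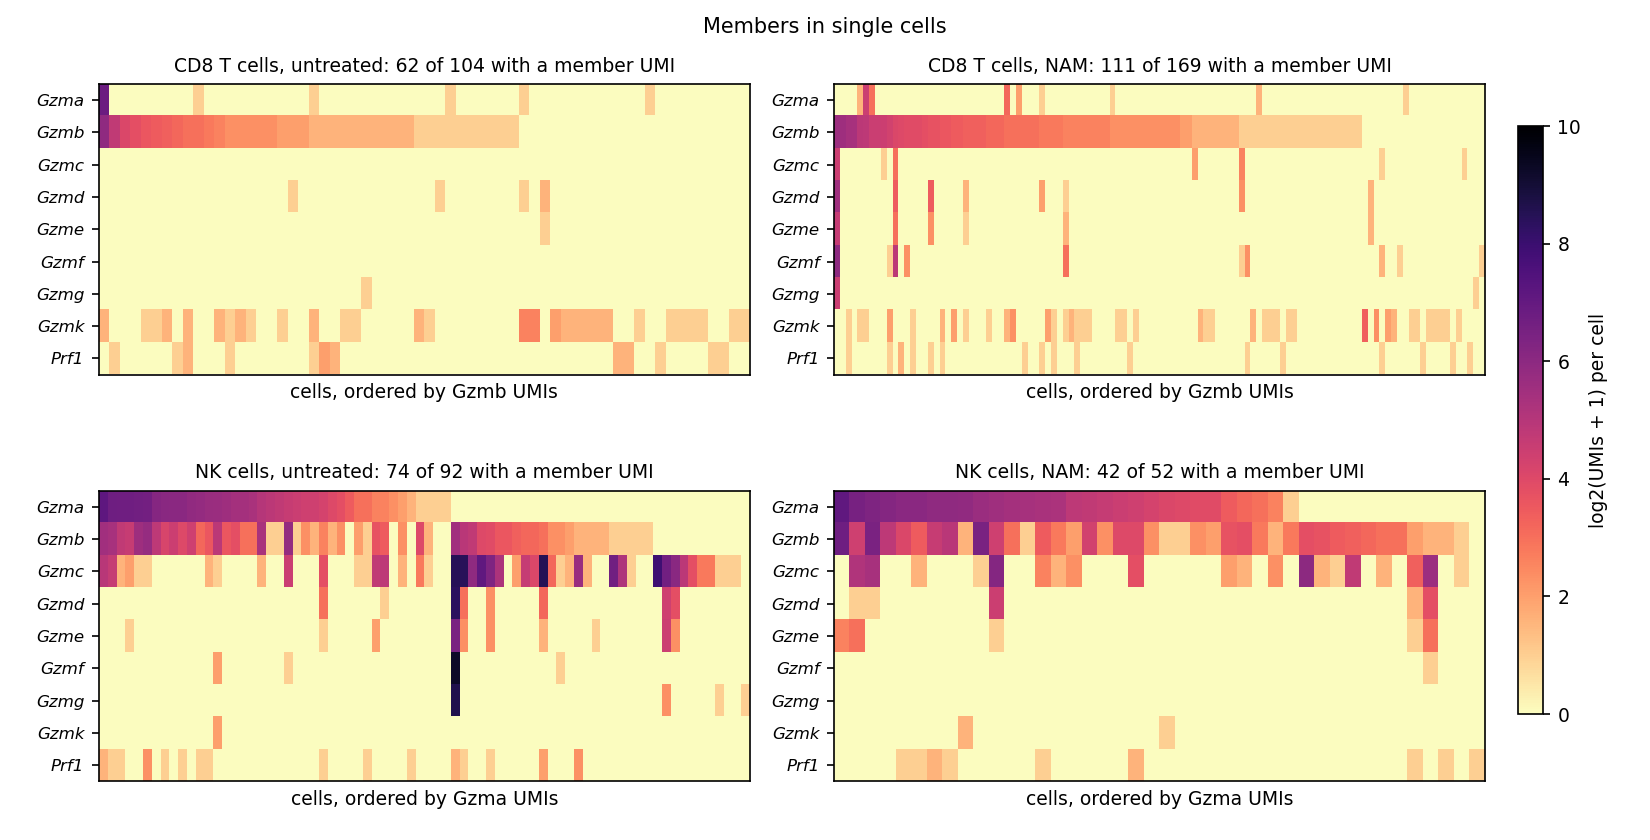
UMIs of each granule gene (rows, colour as log2 of UMIs + 1) in every CD8 T or NK cell with a granule UMI (columns), ordered by Gzmb in CD8 T and by Gzma in NK cells, for both libraries. In untreated NK cells 1 column holds nearly all Gzmf (598 UMIs) and Gzmg (392), and in NAM CD8 T cells the leftmost column holds 61 Gzmf and 45 Gzmd UMIs.

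In other T cells Gzmb was the main granule gene, and Gzmc the other with 20 UMIs. Gzmb went from 431 CPM (391 to 474; 420 UMIs in 39 of 127 cells) to 290 CPM (263 to 320; 399 UMIs in 52 of 156 cells). The log2 ratio of -0.57 (-0.77 to -0.37), 1.48-fold, was just short of the 1.5-fold that a call needs. The share of other T cells with Gzmb was 30.7% (22.8 to 39.5) in untreated and 33.3% (26.0 to 41.3) in NAM, so that it did not fall with the level. Both levels were higher with myeloid-marker cells left out, at 927 and 726 CPM, a ratio of -0.35, and without the highest 5 cells the ratio was -0.15 (-0.41 to 0.12). Gzmc had 28 UMIs in 6 untreated cells and 5 in 4 NAM cells, a ratio of -2.87 (-4.71 to -1.59), and the highest 5 untreated cells held 96.4% of its UMIs. Gzma had 2 and 11 UMIs, and each remaining gene had at most 3.

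How the RNA was spread over cells differed between genes. Over all 3 gates, 18 untreated and 25 NAM cells held 50% of Gzmb, and the highest cell held 4.10% and 6.06%. For Gzma it took 9 and 8 cells, and for Gzmc 4 in each library. In the untreated library the highest cell held 99.0% of Gzmf, 98.0% of Gzmg, 82.9% of Gzmd and 67.4% of Gzme, all of them in the same NK cell. In NAM the highest cell held 55.0% of Gzmf, 95.7% of Gzmg, 38.5% of Gzmd and 38.1% of Gzme, and for these 4 genes it was the CD8 T cell described above. In myeloid background cells most cells with a granule UMI held a single one. There Gzmf had 24 UMIs in untreated and 3 in NAM, Gzmg 10 and 1, Gzmd 17 and 4, and Gzmc 60 and 18, while Gzma had 97 and 99 and Gzmb 55 and 94.

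Within NK cells Gzma and Gzmb went together, and Gzma and Gzmc showed no such relation. Of Gzma cells, 35 of 40 in untreated (87.5%) and 30 of 30 in NAM also had Gzmb, whereas 18 of 40 (45.0%) and 12 of 30 (40.0%) had Gzmc. Across the 92 untreated and 52 NAM NK cells, the Spearman correlation was 0.64 and 0.60 between Gzma and Gzmb, and -0.19 and 0.03 between Gzma and Gzmc. These are descriptions over cells that share a library and whose depths differ. The correlation of Gzma and Gzmb was 0.57 and 0.51 without the 5 cells with most UMIs of the pair. Cells with 10 or more UMIs of Gzma or Gzmc were also counted. In untreated, 25 of 92 NK cells (27.2%, 18.4 to 37.4) had that much Gzma but not Gzmc, 19 (20.7%, 12.9 to 30.4) Gzmc but not Gzma, and 4 both. In NAM, 22 of 52 (42.3%, 28.7 to 56.8) had Gzma, 3 (5.77%, 1.20 to 15.9) Gzmc, and 4 both. Thus 4 of 23 such Gzmc cells in untreated and 4 of 7 in NAM also had that much Gzma, and the genes were not apart in the NAM library.

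Gzmb was shared by the Gzma and the Gzmc cells, and most NK cells with Gzmd to Gzmg had Gzmc. Of NK cells with Gzmc, 36 of 46 in untreated (78.3%) and 20 of 20 in NAM also had Gzmb. Every NK cell with Gzmd had Gzmc (8 of 8 and 5 of 5), as did 9 of 10 and 4 of 5 with Gzme, 4 of 4 and 1 of 1 with Gzmf, and 3 of 4 with Gzmg in untreated. The Spearman correlation between Gzmd and Gzme was 0.78 in each library, and 0.51 in untreated without the 5 cells with most UMIs of the pair, where NAM gave no value, although their transcripts share windows, which was given above. Prf1 was found in few cells, and 15 of 16 in untreated and 8 of 9 in NAM also had Gzmb. One NK cell of the untreated library had 242 granule UMIs that were all Gzmc.

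**Figure D4:**
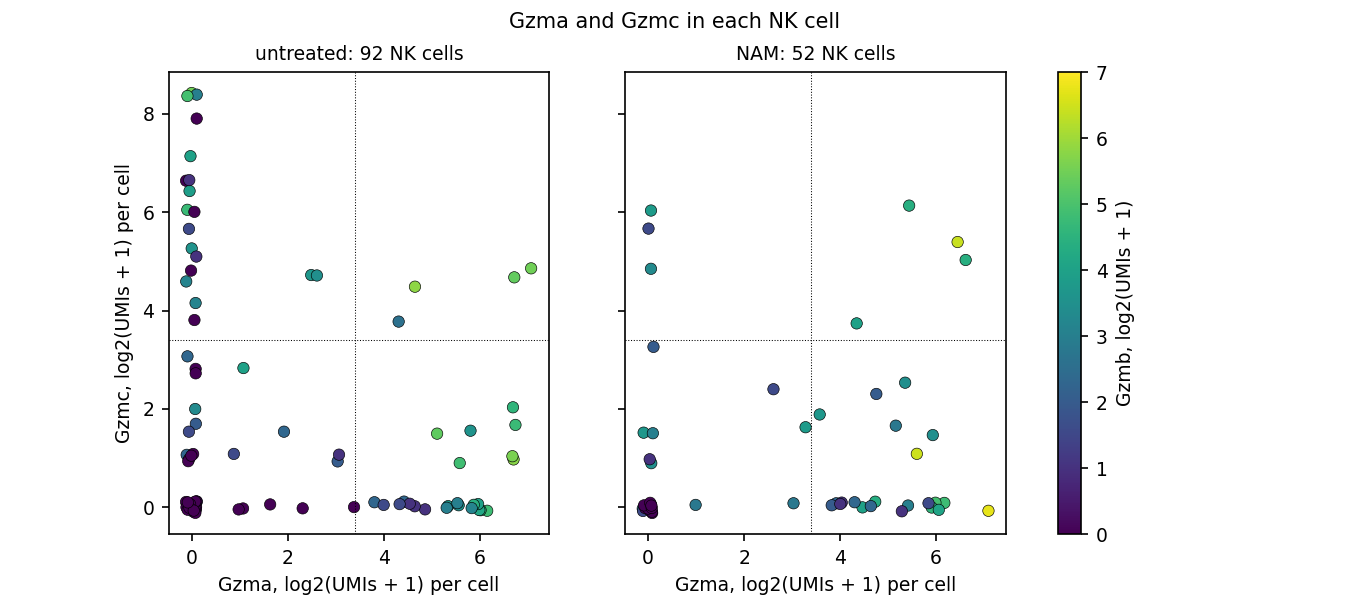
Gzma against Gzmc in each NK cell (both axes log2 of UMIs + 1, points shifted slightly at random so that they do not hide one another, colour for Gzmb), for both libraries, with dotted lines at 10 UMIs. Cells with 10 or more UMIs of both genes are 4 in each library, and those with 10 or more of Gzmc alone number 19 of 92 in untreated and 3 of 52 in NAM.

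In CD8 T cells the pairs were looser. Gzmb was found in 15 of 30 Gzmk cells in untreated (50%) and 30 of 41 in NAM (73.2%), against 33.8% and 46.9% of cells without Gzmk. The Spearman correlation between both genes was 0.22 in each library (104 and 169 cells). Of NAM CD8 T cells with Gzmd, 7 of 8 had Gzmb, as did 7 of 10 with Gzmf and 5 of 7 with Gzmc. Gzmc itself was found in 3 of 8 Gzmd cells, 2 of 6 Gzme cells and 4 of 10 Gzmf cells there. Gzma cells were too few (6 and 9) to describe a pair.

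Cells with 2 or more granule genes were most frequent among NK cells. They made up 63.0% of untreated (52.3 to 72.9) and 75.0% of NAM NK cells (61.1 to 86.0), 25% (17.0 to 34.4) and 29.0% (22.3 to 36.5) of CD8 T cells and 4.72% and 4.49% of other T cells, beside 0.574% and 0.224% of the deeper myeloid background cells. Thinned to 3000 UMIs per cell the shares were 55.4% and 69.2% in NK, 15.4% and 20.1% in CD8 T and 4.72% and 1.28% in other T cells. The intervals of both libraries overlapped in each gate in the counts as deposited. At least 1 granule gene was seen in 80.4% and 80.8% of NK, 59.6% and 65.7% of CD8 T, 35.4% and 40.4% of other T and 10.3% and 7.41% of background cells. Of the background cells with a granule UMI, 234 of 252 and 189 of 198 held a single one, and the highest held 4 and 16. Where these UMIs came from was not tested.

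**Figure D5:**
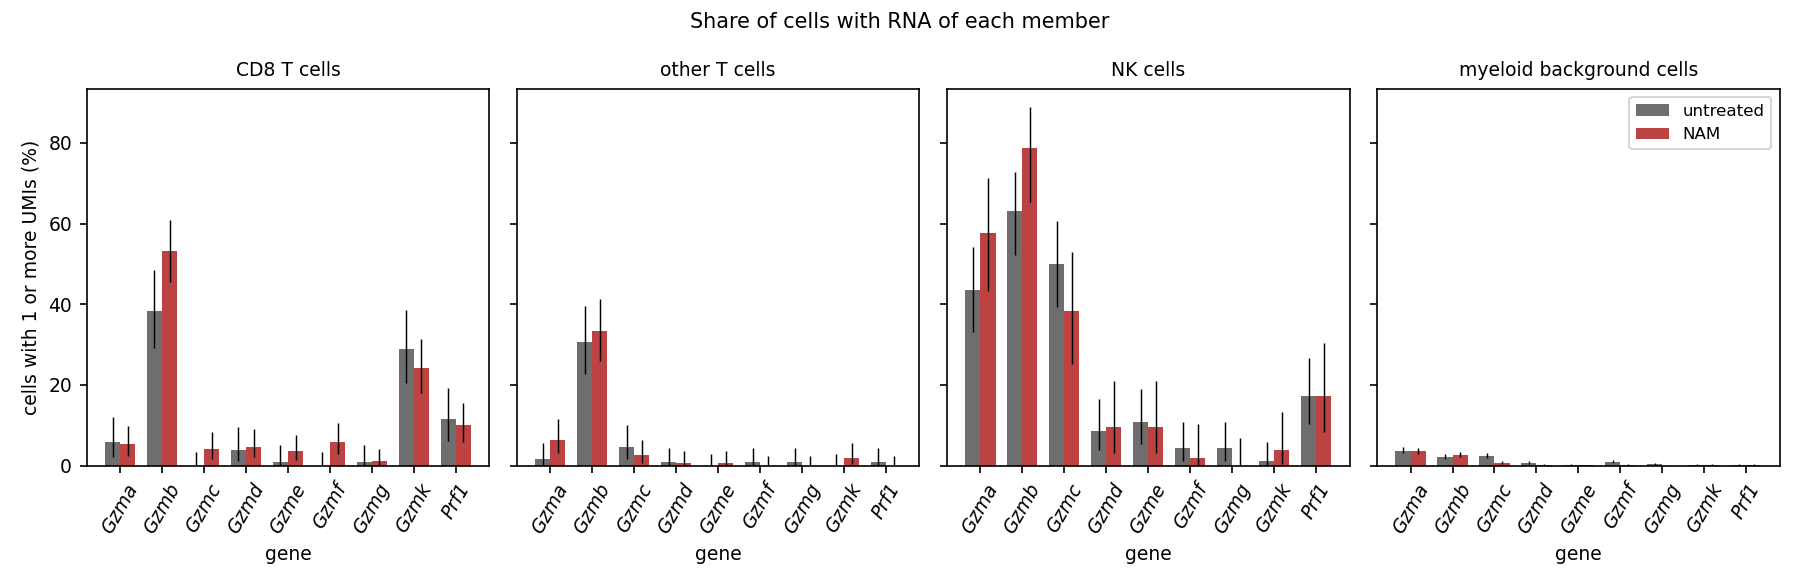
Percent of cells with at least 1 UMI of each granule gene (bars from 0, with exact 95% Clopper-Pearson intervals) in the 3 gates and in myeloid background cells, for both libraries. Gzmb is seen in 38.5% and 53.3% of CD8 T cells and 63.0% and 78.8% of NK cells, beside 2.26% and 2.69% of background cells.

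Other genes that accompanied each granule gene were read at 3000 UMIs per cell, in a separate thinning draw, over 26 genes of T and NK cell state, and those named in this and the next paragraph were chosen after their values were seen. Among CD8 T cells with Gzmb, Havcr2 (TIM-3, an inhibitory receptor) had a UMI in 30.3% and 29.5% (untreated and NAM), against 9.86% and 8.79% of CD8 T cells without Gzmb. Serpinb9, which encodes the inhibitor of granzyme B that protects the cell itself, was found in 45.5% and 51.3%, against 28.2% and 29.7%. Xcl1, a chemokine that draws dendritic cells, went the other way, with 12.1% and 6.41% of Gzmb cells against 23.9% and 34.1% of others. Gzmk cells had Eomes, a T-box factor of memory-like cells, in 40.9% and 31.2%, against 15.9% and 9.49% of cells without Gzmk. With myeloid-marker cells left out, in another draw, the shares of Gzmb cells against others were 20.7% against 9.09% and 27.8% against 11.7% for Havcr2, 48.3% against 24.2% and 55.6% against 36.4% for Serpinb9, and 13.8% against 22.7% and 11.1% against 35.1% for Xcl1. Eomes was then found in 41.7% against 18.3% of untreated cells with and without Gzmk, and in 7 of 28 against 10 of 121 cells in NAM. Median depths of cells with and without Gzmb were 4407 and 4920 UMIs in untreated and 4382 and 5016 in NAM.

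In NK cells the genes that went with Gzma and Gzmc were read with and without myeloid-marker cells, since these lay in part among NK cells without granule genes. The readings without them were added after seeing the data and used another draw. Ccl5, a chemokine of cytotoxic cells, was found in 75.0% of untreated Gzma cells against 28.6% of NK cells without Gzma and in 82.8% against 43.5% in NAM. Without myeloid-marker cells it was found in 71.4% against 20.0% and in 20 of 26 against 6 of 14 cells. Eomes, needed for mature NK cells, was found in 58.3% against 14.3% in untreated and in 8 of 29 against 3 of 23 cells in NAM. Without those cells the untreated shares were 51.4% against 15.0%, while NAM had 6 of 26 against 3 of 14 cells, so that little difference was left there. Gzmc cells had Xcl1 in 84.2% against 51.9% of NK cells without Gzmc in untreated and 77.8% against 41.2% in NAM, but without myeloid-marker cells in 88.9% against 74.4% and in 13 of 16 against 16 of 24 cells. Their Ccl5 share was below that of other NK cells in untreated, at 28.9% against 59.3%, and in 9 of 36 against 24 of 39 cells without those. In NAM it was 77.8% against 58.8% with them and 10 of 16 against 16 of 24 without. NK cells with Gzmb had Serpinb9 in 83.9% and 86.5%, against 50% and 26.7% of those without, and Nkg7, a cytotoxic granule protein, in 55 of 56 and 37 of 37 cells against 63.9% and 40.0%. These contrasts were not seen without myeloid-marker cells in untreated, where Serpinb9 was found in 40 of 50 against 19 of 25 cells and Nkg7 in 47 of 50 against 24 of 25, and only 3 NAM cells without Gzmb were left. Cells without Gzmb in the whole NK gate were deeper, with medians of 6419.5 and 6059 UMIs against 5356.5 and 4635.

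In other T cells, those with Gzmb had Ikzf2 (Helios, a factor of regulatory T cells) more often than those without, and other regulatory T cell genes followed less evenly. Ikzf2 had a UMI in 87.1% of untreated and 91.3% of NAM Gzmb cells, against 37.5% and 25.5% of other T cells without Gzmb. Foxp3, which defines regulatory T cells, was found in 41.9% and 39.1% against 17.7% and 10.0%. Cells without Gzmb were deeper, with medians of 6220 and 8471 UMIs against 4656 and 4867.5, and myeloid-marker cells lay mostly among them. The genes were therefore read again with myeloid-marker cells left out, in another thinning draw, so that these counts need not lie within those above. Ikzf2 was then found in 87.1% (70.2 to 96.4) against 66.0% (51.7 to 78.5) in untreated and 89.5% (75.2 to 97.1) against 58.3% (43.2 to 72.4) in NAM, and the intervals overlapped in untreated alone. Foxp3 was found in 45.2% (27.3 to 64.0) against 30.2% (18.3 to 44.3) and in 44.7% (28.6 to 61.7) against 20.8% (10.5 to 35.0), and these intervals overlapped in each library. Ctla4, an inhibitory receptor of regulatory T cells, was found in 51.6% against 50.9% in untreated and 60.5% against 37.5% in NAM, and Il2ra, the high-affinity interleukin-2 receptor chain, in 45.2% against 35.8% and 44.7% against 29.2%. Cd4 was no more frequent in Gzmb cells, at 29.0% against 30.2% and 23.7% against 29.2%. Nkg7 was found in 51.6% against 54.7% in untreated and in 81.6% against 45.8% in NAM. In this draw 14 of 31 untreated and 17 of 38 NAM Gzmb cells had a Foxp3 UMI.

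Likeness over all 323 untreated and 377 NAM gated cells was ranked by the lower of both libraries' Spearman correlations among 5339 genes, as a description of cells that share library and depth. For Gzmb the closest genes were AW112010 (0.48 and 0.56), Serpinb9 (0.38 and 0.37), Tmsb10, Ctla2a and Klre1. For Gzma they were Ncr1 (0.54 and 0.57), which is a gate gene, then Car2 (0.46 and 0.43), Txk, Klre1 and Ctla2a. Gzmc was likewise closest to Ncr1 and Car2 (0.61 and 0.42), then Ctla2a, Xcl1 and Rpl10. Gzmk was closest to the gate genes Cd8b1 and Cd8a, then Cxcr6 (0.33 and 0.32), Klrc1 and Nkg7. Prf1 was closest to Klre1 (0.27 and 0.28), Irf8, Eomes, Nkg7 and Klrd1, all weak.

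The granule pathway around these genes was read from a list of 53 genes in 7 roles. Unlike those of the members, pathway ratios were not read without the highest cells, so how far single cells set them is not known. In CD8 T cells 5 of 47 with 20 UMIs were called higher and 3 lower, with a median ratio of 0.06, where 4.05% and 4.28% of all genes were called. Higher were Xcl1 (1.81), Serpina3g (0.91), a serine protease inhibitor, Ctsc (0.72), the protease that activates granzymes, Fasl (0.69), a death ligand, and Serpinb9 (0.64). Lower were Ccl3 (-2.21), a chemokine, Rab27a (-1.90), which docks granules for release, and Eomes (-1.28). With myeloid-marker cells left out 3 of 5 stayed higher and 3 of 3 lower, and Ctsc (0.44) and Serpina3g (0.29) were no longer called. Of 10 granule release genes with 20 UMIs, 9 were neither.

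In NK cells 7 of 44 pathway genes were called higher and 2 lower, with a median of 0.09, where 4.16% and 5.04% of all genes were called. Fewer were called without myeloid-marker cells. Higher were Ifng (2.28; 7 and 17 UMIs), Tnf (1.63), Serpinb9b (1.48), Ccl4 (1.27) and Ccl3 (1.12) among others, and lower were Il2ra (-2.78; 21 and 1 UMIs) and Xcl1 (-0.75). With myeloid-marker cells left out, Ifng (2.30; 1.02 to 3.87) and Serpinb9b (1.45) alone of the 7 stayed higher, while Il2ra and Xcl1 stayed lower. Tnf then had 7 and 0 UMIs, and Ccl4 a ratio of -0.16. None of the 9 granule release genes and none of the 9 transcription factors with 20 UMIs was called.

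In other T cells 4 of 44 pathway genes were called higher and 7 lower, with a median of -0.31, where 3.18% and 6.00% of all genes were called. Higher were Ccl4 (0.80), Tnf (0.73), Xcl1 (0.73) and Ccl5 (0.63), and none of these stayed called without myeloid-marker cells. Lower were Rab27a (-1.77), Ifng (-1.53), Cst7 (-1.07), an inhibitor of granzyme-processing cathepsins, Il18r1 (-0.97) and Batf (-0.88) among others, of which 4 of 7 stayed lower without those cells, Rab27a, Ifng, Cst7 and Batf.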

How the data were processed

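The authors made single-cell 3′ libraries from CD45+ cells of pooled TSA tumours and counted UMIs with Cell Ranger on mm10, per the submitters' processing notes. The deposited values are whole-number UMI counts per gene and cell, not normalised, 1 table per group. The annotation version and the handling of doublets are not given in the sources used here. The study's filter (1000 genes, 3000 UMIs, at most 10% mitochondrial UMIs) had been applied before deposit, and no further cell was removed and no doublet caller was run. A droplet with 2 cells can therefore stand among the gated cells, and free RNA can add single UMIs, which is why background cells and values without myeloid-marker cells are given.

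Cells were gated by Cd3e, Cd8a, Cd8b1 and Ncr1 UMIs. Counts were summed per gate and divided by the gate's total (CPM), with exact Poisson intervals for levels, exact conditional binomial intervals for ratios (pseudocount 0.5 UMI) and Clopper-Pearson intervals for shares, all at 95%. Calls needed 20 UMIs over both libraries, 1.5-fold and an interval that left out 0. The log2 ratios were fitted for all genes of a gate. Because each group had 1 library, no p-value was computed and differences compare these libraries, not the treatments. Precision follows from 29161823 and 32090120 UMIs, of which gates held 337300 to 1374400. Alternatives changed the gates, the scaling, the depth, the weight of cells, the filter on low counts and the highest cells. The same alternative without myeloid-marker cells was added for the pathway genes after seeing the data. The scripts were tested on simulated counts with known changes. Python 3.11.15, numpy 2.4.6, scipy 1.17.1, Biopython 1.88 (alignments) and matplotlib 3.10.9 were used.

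Genes named by rule are the 9 members, at most 5 pathway genes called each way per gate by size of ratio, and the 5 genes most like Gzma, Gzmb, Gzmc, Gzmk and Prf1. Outside this rule, gate genes, some markers and some genes of T and NK cell state are named, the last chosen after their values were seen. Of 99 marker genes listed, 89 matched the files' symbols. Not every marker is named here. Members and lists were chosen with earlier results of these data known.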

Additional observations from a re-analysis of the deposited data

Results flagged for a closer look

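Several genes had ratios of opposite sign in different gates, and none of these differences was tested. The log2 ratio of Gzma in NK cells minus that in CD8 T cells was 2.74, with 1 untreated CD8 T cell behind the CD8 T value. For Gzmc the CD8 T ratio was at least 4.61 above the NK ratio and 5.80 above the other T ratio, with the 0 UMIs of untreated CD8 T cells set to 3, but the CD8 T ratio was 0.01 with Cd3e and Ncr1 cells counted as T cells. CD8 T minus NK was 5.29 for Gzmd, 5.51 for Gzme, 12.02 for Gzmf and 9.19 for Gzmg, where a count of 0 was set to 3 UMIs. In each of these 4 genes 1 untreated NK cell and 1 NAM CD8 T cell held most of the UMIs on which the difference rests.

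Granule genes were also seen in cells that no gate took. Of ungated cells, 8 untreated and 5 NAM cells had 10 or more granule UMIs, up to 72 and 87. Klrb1c or Klre1 was found in 5 of the 8 and 4 of the 5, Cd3d or Cd3g in 1 and 2, and 1 NAM cell had myeloid markers. Of cells with both Cd3e and Ncr1, 10 of 11 untreated and 15 of 19 NAM cells had a granule UMI. Their Gzma went from 2 to 85 UMIs, Gzmb from 37 to 165 and Gzmc from 54 to 28, out of 72955 and 115320 UMIs in all. In NAM 51 of the 85 Gzma UMIs and 21 of the 28 Gzmc UMIs lay in 1 cell each, and in untreated 28 of the 54 Gzmc UMIs did. The cause was not tested.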

How the results depend on the processing

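Of the 15 called ratios of granule genes, all kept their sign when Cd3e and Ncr1 cells were counted as T cells, when a second T-cell gene was needed, under median-of-ratios scaling (which subtracts 0.01, -0.04 and 0.02 from all ratios in CD8 T, other T and NK cells) and after thinning. Fewer kept the call itself, namely 14 of 15, 12 of 15, 15 of 15 and 12 of 15, respectively. Lost were Gzmc in CD8 T cells (0.01) in the first, Gzme (-0.04), Gzmf (-0.54) and Gzmg (-2.65) in NK cells in the second, and Gzmg in CD8 T cells (4.25, under 20 UMIs) and Gzma (0.44) and Gzme (-0.67) in NK cells after thinning. Calls kept were 11 of 15 without myeloid-marker cells, 7 of 15 without the highest cell and 3 of 15 without the highest 5. With a mean over cells 12 of 12 kept the sign, 13 of 15 without myeloid-marker cells, 13 of 14 without the highest cell and 8 of 9 without the highest 5. The sign turned for Gzma in CD8 T cells without the highest cell (1.43) or the highest 5 (1.07), and for Gzmd (0.43) and Gzme (0.13) in NK cells without myeloid-marker cells. For Gzmb in CD8 T cells the ratio moved to 1.14 and 1.44 without the highest 1 and 5 cells, and in NK cells to 0.26 without the highest 5 and 0.55 as a mean over cells. In other T cells it moved to -0.17 with Cd3e and Ncr1 cells included, -0.29 with a second T-cell gene, -0.35 without myeloid-marker cells and -0.15 without the highest 5.

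The median over members followed the few highest cells. In CD8 T cells it was 0.78 with Cd3e and Ncr1 cells, 3.18 without myeloid-marker cells, 1.29 and 0.50 without the highest 1 and 5 cells, 2.08 thinned, 1.00 as a mean over cells and 0.24 over members with 100 UMIs. In NK cells it was -0.26 with a second T-cell gene needed, -0.32 without the highest cell, -0.74 thinned and -0.46 as a mean over cells, and it turned to 0.28 without myeloid-marker cells and 0.26 without the highest 5. In other T cells it was -0.17 with Cd3e and Ncr1 cells, -1.57 with a second T-cell gene and -1.57 without myeloid-marker cells, -0.15 without the highest 5, -3.10 thinned, -2.00 as a mean over cells and -0.57 with a minimum of 5 or of 100 UMIs. The share of cells with 2 or more members was 15.4% and 20.1% thinned and 7.69% and 13.6% with 2 UMIs per member in untreated and NAM CD8 T cells, 50% with 2 UMIs in untreated and 90.0% without myeloid-marker cells in NAM NK cells, and 1.28% thinned in NAM other T cells.

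No paired analysis was possible because each group is 1 library. For the same reason no replicate was left out, and differences between mice, cages or library runs cannot be told apart from NAM. Gates of 52 to 169 cells per library limit what shares can show, and genes under 20 UMIs were given as counts.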
